A study of Rattus norvegicus with 6 samples.

Results

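Notch signalling was examined through 10 genes in mesenchymal stem cells of the rat nasal mucosa, with 3 RNA sequencing libraries of NPS-EMSC and 3 of EMSC. The genes are 3 receptors (Notch1, Notch2 and Notch3), 3 ligands (Jag1, Jag2 and Dll1) and 4 transcriptional targets (Hes1, Hey1, Hey2 and Heyl), chosen by exact gene symbol. All 10 were found among the 20653 genes of the deposited count table. EMSC are cells that the labels call primary, with SD given as the genotype, and NPS-EMSC are, by the title of the series, such cells made to overexpress neuropeptide S, a short secreted peptide. The labels do not say how the gene was delivered or whether EMSC carried a control vector, so delivery and neuropeptide S cannot be told apart here. They also do not say whether the libraries of a group came from separate cultures or animals, so p-values measure the spread between these libraries only.

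Notch receptors are single-pass membrane proteins that are activated by ligands on a neighbouring cell. Ligand binding lets an ADAM protease and then gamma-secretase cut the receptor, and the released intracellular domain enters the nucleus, binds the DNA-binding protein RBPJ and switches on Hes and Hey genes. Hes and Hey proteins are basic helix-loop-helix repressors, which in turn can shut off their own genes and others. In mesenchymal tissues the pathway is known for holding progenitors undifferentiated and, through Notch3 and Jag1, for its part in the smooth muscle and pericytes of vessel walls.

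The libraries held 39082245 to 39511976 counted reads in NPS-EMSC and 39314098 to 40261205 in EMSC. Nps, the overexpressed gene, had 93566, 77014 and 85916 reads in NPS-EMSC, against 0, 0 and 10 reads in EMSC, where all reads lay in replicate 3. Genes were tested with edgeR's quasi-likelihood test. A call means a p below 0.05 after Benjamini-Hochberg adjustment across the 14505 genes that passed a filter on low counts. By that test 59.3% of all tested genes were called, 29.7% as higher and 29.5% as lower in NPS-EMSC, so a call by itself was common. The mesenchymal list summed to 23821 to 24939 CPM in NPS-EMSC libraries and 23143 to 25351 CPM in EMSC libraries. Its single genes differed between the groups, since all 11 were called, 7 as higher and 4 as lower. The highest mean of that list over both groups was that of Col1a1, a collagen chain gene. Col1a1 was at 5985 ± 270 CPM in NPS-EMSC and 7249 ± 694 CPM in EMSC (SD, n = 3). Here and below CPM is the read count scaled to a fixed TMM-corrected library total.

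The sequences that the pathway reads are shown for 5 members: the 4 whose promoter window holds the RBPJ core TGGGAA (Notch3, Dll1, Hes1 and Hey2), and Jag1, the called ligand with the most reads. Each window runs 5′ to 3′ along the gene's own strand, from 250 bases before to 50 bases after the gene start, and comes from RefSeq, rat assembly GRCr8, at chr7:11834536-11834835 on the minus strand for Notch3, chr3:144894834-144895133 on the minus strand for Jag1, chr1:64993225-64993524 on the minus strand for Dll1, chr11:84212996-84213295 on the minus strand for Hes1 and chr1:28640850-28641149 on the plus strand for Hey2. Capitals mark TGGGAA and the motif CACGCG, which Hes and Hey proteins bind, on either strand (TTCCCA and CGCGTG on the other strand), and the longer RBPJ form GTGGGAA, which contains the core and is capitalised in full.
Notch3: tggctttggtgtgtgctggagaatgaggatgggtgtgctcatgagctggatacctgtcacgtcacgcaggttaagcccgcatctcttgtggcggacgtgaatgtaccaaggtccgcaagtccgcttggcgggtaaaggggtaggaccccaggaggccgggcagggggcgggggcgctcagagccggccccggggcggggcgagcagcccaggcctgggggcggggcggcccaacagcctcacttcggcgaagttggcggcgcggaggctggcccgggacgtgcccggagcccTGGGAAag
Jag1: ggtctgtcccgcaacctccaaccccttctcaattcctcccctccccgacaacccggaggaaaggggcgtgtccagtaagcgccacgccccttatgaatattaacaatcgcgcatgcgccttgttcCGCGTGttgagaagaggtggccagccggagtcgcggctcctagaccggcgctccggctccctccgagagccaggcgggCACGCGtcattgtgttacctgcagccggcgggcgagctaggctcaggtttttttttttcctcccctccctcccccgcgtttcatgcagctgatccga
Dll1: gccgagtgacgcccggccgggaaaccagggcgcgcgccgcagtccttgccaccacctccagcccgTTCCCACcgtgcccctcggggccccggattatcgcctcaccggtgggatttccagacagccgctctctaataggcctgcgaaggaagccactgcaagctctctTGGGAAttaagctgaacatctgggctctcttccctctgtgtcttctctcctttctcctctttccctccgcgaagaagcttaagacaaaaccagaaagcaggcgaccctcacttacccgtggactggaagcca
Hes1: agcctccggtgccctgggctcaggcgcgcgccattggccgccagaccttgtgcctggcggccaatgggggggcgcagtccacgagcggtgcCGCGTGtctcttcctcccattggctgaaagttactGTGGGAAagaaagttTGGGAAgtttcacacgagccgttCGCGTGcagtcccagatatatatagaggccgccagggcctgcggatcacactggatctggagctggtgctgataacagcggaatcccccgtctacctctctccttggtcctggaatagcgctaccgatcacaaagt
Hey2: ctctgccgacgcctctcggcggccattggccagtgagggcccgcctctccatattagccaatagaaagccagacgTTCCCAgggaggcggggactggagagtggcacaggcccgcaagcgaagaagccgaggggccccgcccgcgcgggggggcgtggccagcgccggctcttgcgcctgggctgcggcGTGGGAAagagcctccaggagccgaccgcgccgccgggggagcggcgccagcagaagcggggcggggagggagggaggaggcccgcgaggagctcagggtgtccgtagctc

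In the Hes1 window the RBPJ core occurred at 2 places on the gene's strand, starting 123 and 109 bases before the gene start, and CACGCG stood on both sides of them on the other strand, at 159 and 86 bases before it. The Dll1 window held the RBPJ core at 185 and 82 bases before the start, and the Hey2 window at 175 and 60 bases before it, in each gene once on either strand. The one match of Notch3 lay 43 bases after the start. Jag1 had no RBPJ core in its window and 2 CACGCG matches, at 125 and 47 bases before the start.

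Promoter windows were found for 9 of the 10 members, all but Hey1. The RBPJ core was present for 4 of these 9 genes, against 25.7% of all 33469 windows of the same length, and GTGGGAA for 3 of them (Dll1, Hes1 and Hey2), against 6.29%. CACGCG was present for 5 (Notch2, Jag1, Hes1, Heyl and 1 of the 2 windows of Jag2), against 8.50%. The windows of the members held 58% to 84.7% G and C, against a median of 51.7% over all windows. The shares were not matched for this content, and CACGCG is itself rich in G and C. They also set genes, with 2 windows for Jag2, against single windows. No difference between these shares was tested. These are matches of letters and not measured binding sites. Of the members with the RBPJ core, Notch3, Dll1 and Hes1 were called lower in NPS-EMSC. Hey2 had more reads there but did not pass the filter on low counts. A link between these matches and the direction of change was not tested.

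**Figure D1:**
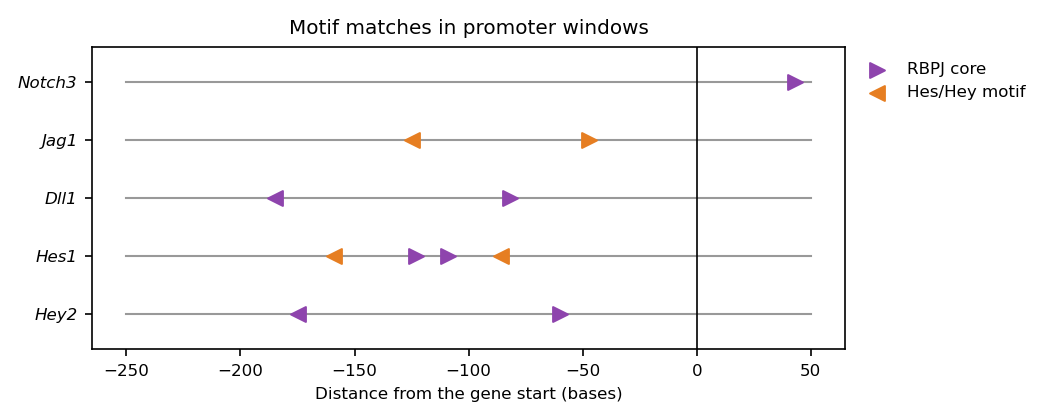
Matches of the RBPJ core TGGGAA (purple) and of the Hes and Hey motif CACGCG (orange) in 5 promoter windows. The x axis is the distance from the gene start in bases, 1 row per gene, and arrowheads point right for the gene's strand and left for the other. Hes1 shows 2 RBPJ cores between 2 CACGCG matches.

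Of the 7 members that passed the filter on low counts, 5 fell in NPS-EMSC (Notch2, Notch3, Jag1, Dll1 and Hes1), 1 rose (Notch1) and 1 did not pass the test (Hey1). The other 3, Jag2, Hey2 and Heyl, had at most 12 reads in any library and were not tested. Hey1 passed the filter only through its EMSC libraries, so the 7 are not an even sample of the 10. The groups did not overlap in 6 of these 7 members, and they were apart in 64.7% of all tested genes; with 7 members no difference between these shares was tested. Among all tested genes 29.5% fell, as given above. In bulk RNA, fewer cells of a type and less RNA per cell cannot be told apart, which holds for every value here.

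**Figure D2:**
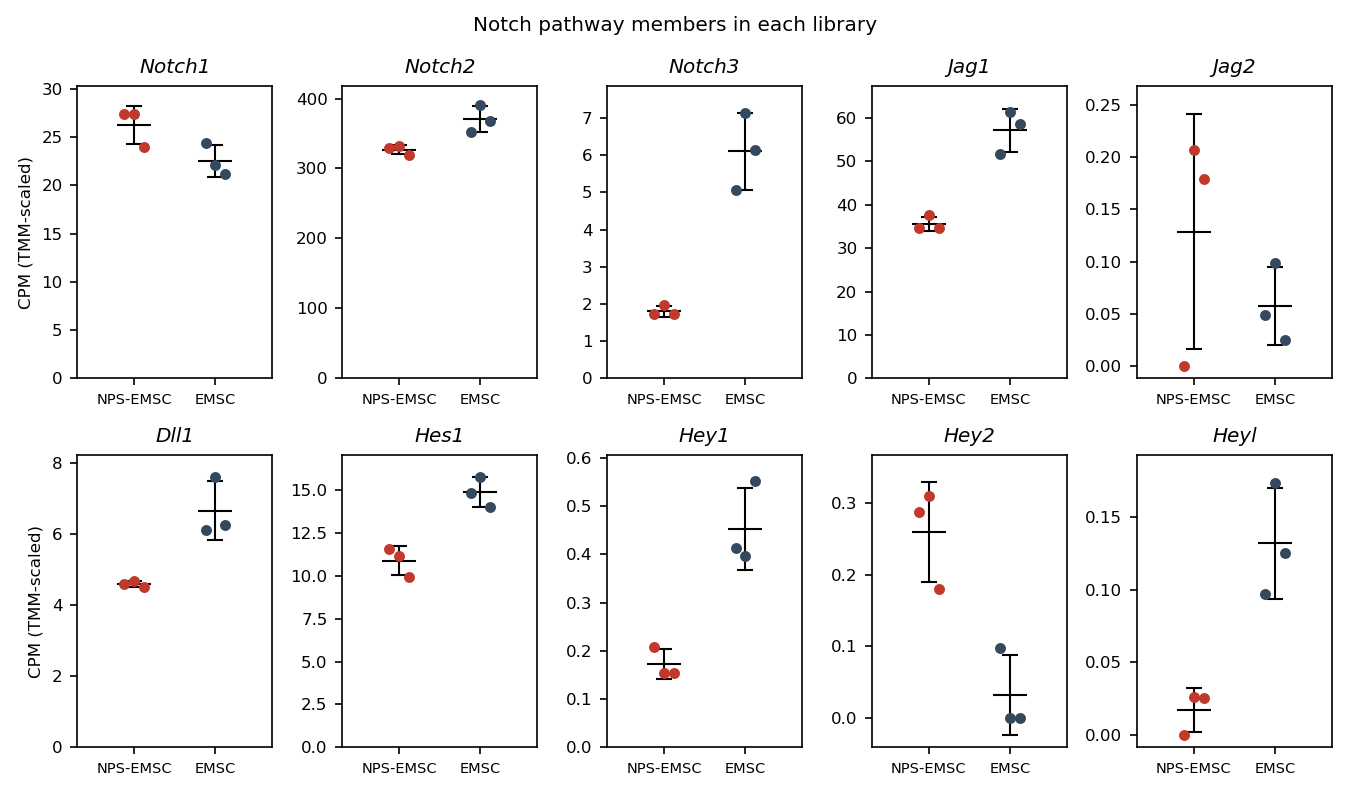
Level of each of the 10 members in every library, in TMM-scaled CPM with a separate y axis per gene; points are libraries, the long bar is the mean and the whiskers are 1 SD (n = 3), with NPS-EMSC in red and EMSC in dark blue. The groups overlap for Notch1 and Jag2, and the other members are apart.

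Among the receptors, Notch3 changed most. Notch3, which marks vascular smooth muscle and pericytes, had 66, 76 and 67 reads in NPS-EMSC libraries, against 208, 288 and 245 reads in EMSC libraries. Every NPS-EMSC library lay far below every EMSC library. The level was 1.80 ± 0.140 CPM in NPS-EMSC and 6.10 ± 1.04 CPM in EMSC (SD, n = 3), a log2 fold change of -1.73 (SE 0.20, edgeR adjusted p = 5.06e-08), or 3.32-fold lower. Of all tested genes, 3.47% had a more negative fold change than Notch3. It was called with each library left out in turn, at log2 fold changes of -1.85 to -1.61.

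Notch2, the receptor with by far the most reads, had 12607, 12839 and 12454 reads in NPS-EMSC, against 14533, 15799 and 14715 in EMSC. Here too the groups did not overlap, but the gap was small. Its level was 327 ± 6.36 CPM in NPS-EMSC and 371 ± 19.0 CPM in EMSC (SD, n = 3), and it fell by 0.18 on the log2 scale (SE 0.05, edgeR adjusted p = 0.00148).

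Notch1, the receptor best known from neural and blood progenitors, was the member that rose. It had 1049, 1060 and 935 reads in NPS-EMSC, against 1003, 894 and 846 in EMSC. The groups overlapped, because NPS-EMSC replicate 3 at 24.0 CPM lay below EMSC replicate 1 at 24.3 CPM. The log2 fold change was 0.22 (SE 0.08, edgeR adjusted p = 0.0290). The call was lost without NPS-EMSC replicate 1 (adjusted p = 0.105), NPS-EMSC replicate 2 (adjusted p = 0.0954), EMSC replicate 2 (adjusted p = 0.0733) or EMSC replicate 3 (adjusted p = 0.123), and with upper-quartile scaling (adjusted p = 0.0655). It was kept in 8 of 17 alternatives, so the difference was at the limit of these data.

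Levels of different receptors were compared per gene length, in the deposited FPKM (reads divided by gene length and by the library total). Notch2 held 91.6%, 91.6% and 92.3% of the summed FPKM of the 3 receptors in NPS-EMSC libraries, against 91.8%, 92.4% and 92.5% in EMSC libraries. The share of Notch3 was 0.640%, 0.724% and 0.663% in NPS-EMSC, against 1.75%, 2.25% and 2.06% in EMSC. Notch1 held 7.74%, 7.68% and 7.04% in NPS-EMSC, against 6.44%, 5.31% and 5.40% in EMSC. Both groups therefore carried a receptor pool that was mostly Notch2, and the minor receptors stood in different proportion: the ratio of Notch1 to Notch3 was 11.1 ± 0.854 in NPS-EMSC and 2.89 ± 0.691 in EMSC (SD, n = 3, FPKM ratio). The summed FPKM of the 3 receptors was 32.8, 33.4 and 31.8 in NPS-EMSC, against 36.8, 39.6 and 37.7 in EMSC. These shares and sums were not tested.

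Both ligands with enough reads fell. Jag1, the Jagged ligand of vessel wall and bone marrow stroma, had 1325, 1452 and 1345 reads in NPS-EMSC, against 2123, 2477 and 2334 in EMSC. The highest NPS-EMSC library was far under the lowest EMSC library. The level was 35.5 ± 1.71 CPM in NPS-EMSC and 57.1 ± 5.00 CPM in EMSC (SD, n = 3; log2 fold change -0.68, SE 0.07, edgeR adjusted p = 3.83e-09), or 1.60-fold lower.

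Dll1, the Delta-like ligand of somite and neural progenitors, had 176, 181 and 176 reads in NPS-EMSC, against 252, 308 and 250 in EMSC. The groups did not overlap and EMSC replicate 2 was the highest library. Dll1 was at 4.60 ± 0.0798 CPM in NPS-EMSC and 6.66 ± 0.827 CPM in EMSC (SD, n = 3), and fell by 0.53 on the log2 scale (SE 0.16, edgeR adjusted p = 0.00582).

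Jag2, the second Jagged ligand, had 0, 8 and 7 reads in NPS-EMSC, against 2, 4 and 1 in EMSC. The groups overlapped, with NPS-EMSC replicate 1 at 0. The ratio of summed, depth-scaled reads was 2.25 (95% exact counting interval 0.862 to 6.51), so no difference was detectable at this depth. Such intervals cover counting error only.

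Jag1 was the main ligand per length in both groups. It held 80.8%, 81.3% and 80.6% of the summed FPKM of the 3 ligands in NPS-EMSC, against 82.4%, 81.7% and 83.9% in EMSC. Jag1 and Dll1 fell by 0.68 and 0.53 on the log2 scale, and their FPKM ratio was 4.31 ± 0.144 in NPS-EMSC and 4.80 ± 0.371 in EMSC (SD, n = 3). That ratio was at most 4.48 in NPS-EMSC libraries and at least 4.49 in EMSC libraries, and was not tested. The summed FPKM of the ligands was 7.50, 8.18 and 7.56 in NPS-EMSC, against 11.5, 13.5 and 12.7 in EMSC. Per length, Jag1 stood at 0.209 ± 0.00777 of the FPKM of Notch2 in NPS-EMSC and at 0.295 ± 0.0130 in EMSC. All 3 NPS-EMSC libraries had a lower ratio of this ligand to this receptor than any EMSC library; the ratio was not tested.

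Hes1, the repressor that most cells switch on when Notch is cut, was the one target with more than 22 reads in a library. It had 442, 432 and 387 reads in NPS-EMSC, against 611, 638 and 559 in EMSC. All NPS-EMSC libraries were below all EMSC libraries. Hes1 was at 10.9 ± 0.840 CPM in NPS-EMSC and 14.9 ± 0.891 CPM in EMSC (SD, n = 3), and fell by 0.45 on the log2 scale (SE 0.11, edgeR adjusted p = 0.00103), or 1.37-fold. Its promoter window, shown above, holds both RBPJ cores on the gene's own strand.

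The 3 Hey genes were close to the detection limit. Hey1, a repressor of vessel and heart development, had 8, 6 and 6 reads in NPS-EMSC, against 17, 16 and 22 in EMSC. The groups did not overlap, but the log2 fold change of -1.17 (SE 0.52) did not pass (edgeR adjusted p = 0.0535). Over 14 alternatives its adjusted p was 0.0118 to 0.166, and it passed with upper-quartile scaling and on log2(FPKM + 1) values without a filter.

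Hey2, which shares roles with Hey1 in arteries and the heart, went the other way in its reads, with 11, 12 and 7 in NPS-EMSC and 4, 0 and 0 in EMSC. The groups did not overlap, and all EMSC reads lay in EMSC replicate 1. The ratio of summed, depth-scaled reads was 7.86 (95% exact counting interval 2.77 to 30.7). With every gene kept in the test its log2 fold change was 1.90 (SE 0.82, edgeR adjusted p = 0.0494), and the call was lost on leaving out any one library other than EMSC replicate 1 (adjusted p = 0.0610 to 0.158). Without EMSC replicate 1, which held all EMSC reads, the EMSC group stood at 0 by construction. The depth-scaled NPS-EMSC reads were then 6.93 times an assumed upper limit of 3 counts for the other 2 EMSC libraries together. That figure leaves out counting error in NPS-EMSC and is not a lower bound, and the interval over all libraries starts at 2.77.

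Heyl, which in mice is a target of Notch3 in smooth muscle, had 0, 1 and 1 reads in NPS-EMSC, against 4, 7 and 5 in EMSC. The groups did not overlap. The ratio of summed, depth-scaled reads was 0.131 (95% exact counting interval 0.0146 to 0.557), and with every gene kept the adjusted p was 0.162 (log2 fold change -1.43, SE 0.83). The exact two-sided permutation test over the 6 libraries gave p = 0.1 for Heyl and for Hey2, the smallest value that 3 against 3 libraries allow.

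Hes1 held nearly all of the per-length level of the 4 targets, with 97.1%, 97.1% and 97.6% of their summed FPKM in NPS-EMSC, against 97.4%, 97.9% and 97.0% in EMSC. The sum was 6.85, 6.70 and 5.91 FPKM in NPS-EMSC, against 9.20, 9.53 and 8.63 FPKM in EMSC. Within the small remainder the order of the Hey genes differed between the groups. In NPS-EMSC Hey2 was at 0.105 ± 0.0284 FPKM, Hey1 at 0.0713 ± 0.0125 FPKM and Heyl at 0.00364 ± 0.00315 FPKM (SD, n = 3). In EMSC Hey1 was highest at 0.193 ± 0.0366 FPKM, ahead of Heyl at 0.0287 ± 0.00805 FPKM, and Hey2 was listed at 0.0412 FPKM in replicate 1 and at 0 in the other libraries.

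Over all 10 members the order per length was led by Notch2 in both groups, at 30.0 ± 0.621 FPKM in NPS-EMSC and 35.1 ± 1.42 FPKM in EMSC (SD, n = 3). In NPS-EMSC the next places were shared by Hes1 at 6.31 ± 0.473 FPKM and Jag1 at 6.27 ± 0.332 FPKM, whose libraries overlapped. In EMSC Jag1 at 10.4 ± 0.805 FPKM was above Hes1 at 8.88 ± 0.483 FPKM in every library. Notch1 at 2.45 ± 0.181 FPKM stood above Dll1 at 1.45 ± 0.0297 FPKM in NPS-EMSC, while both were at 2.17 FPKM in EMSC, with SDs of 0.174 and 0.247. Notch3 followed in both groups, at 0.221 ± 0.0182 FPKM in NPS-EMSC and 0.770 ± 0.123 FPKM in EMSC. The Hey genes and Jag2 were below it, and the lowest place was held by Heyl in NPS-EMSC and by Jag2, at 0.0117 ± 0.00755 FPKM, in EMSC, where it overlapped Hey2.

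**Figure D3:**
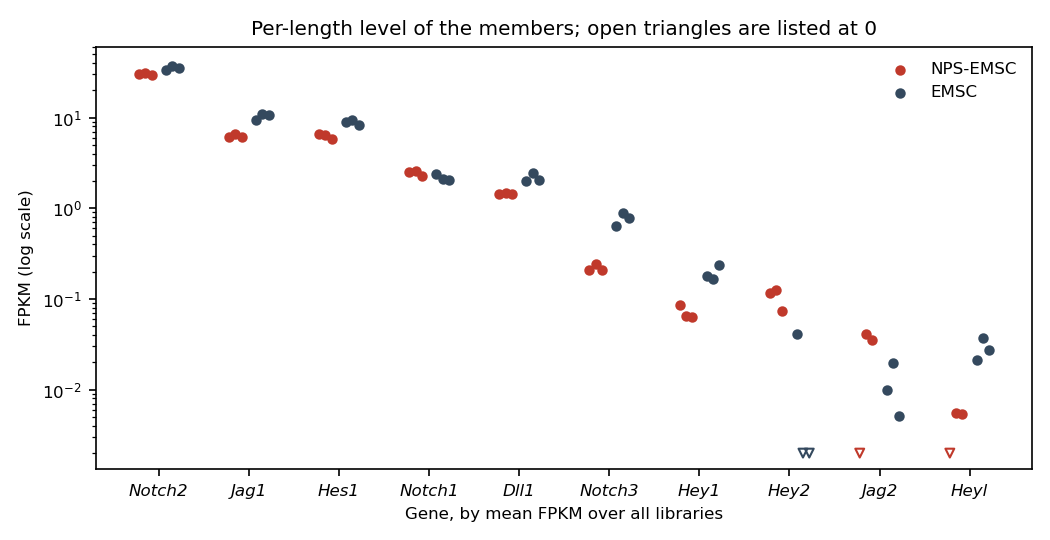
Deposited FPKM of the 10 members on a log axis, ordered from left to right by the mean over all libraries; each point is a library, NPS-EMSC in red on the left and EMSC in dark blue on the right of each gene, and open triangles at the lower edge are libraries listed at 0. Notch2 lies near 30 FPKM and the Hey genes and Jag2 lie below 0.3 FPKM in every library.

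The wider pathway was described with 8 lists of 83 genes in all, of which 78 had values and 74 were tested. Of these 74, 19 rose and 26 fell, and 29 did not pass. The median log2 fold change was -0.03, against -0.0048 over all tested genes. Calls were 60.8% of these genes, near the 59.3% of all genes, so the pathway as a whole did not stand out in how many genes were called. Mfng, Dtx1, Hes3, Hes5 and Helt were not analysed here.

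Receptors and ligands outside the 10 members included the genes with the largest changes. Of 8 tested, 4 rose and 3 fell (median log2 fold change 0.63), so 87.5% were called, against 59.3% of all tested genes. Dner, which encodes a membrane protein with Delta-like repeats that is best known from neurons, had 703, 782 and 706 reads in NPS-EMSC, against 231, 199 and 165 in EMSC, and rose 3.84-fold (log2 fold change 1.94, SE 0.13, edgeR adjusted p = 1.01e-12). Cntn1, the gene of contactin, an adhesion protein reported to bind Notch, rose to 10.3 ± 1.79 CPM in NPS-EMSC, against 2.21 ± 0.560 CPM in EMSC (SD, n = 3). Egfl7, a secreted protein gene of endothelial cells, rose 1.64-fold, and Mfap2, which encodes a microfibril protein, fell 3.33-fold.

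Dlk1, named here after its values were seen, encodes a Delta-like protein without the domain that activates receptors. It had 3, 5 and 7 reads in NPS-EMSC, against 87, 51 and 45 in EMSC, with a log2 fold change of -3.11 (SE 0.48, edgeR adjusted p = 4.07e-06). Dlk2, also named after its values were seen, had 28, 21 and 29 reads in NPS-EMSC, against 1, 14 and 1 in EMSC. Its log2 fold change was 1.99 (SE 0.60, edgeR adjusted p = 0.00656). Dlk1 passed the filter on low counts only through EMSC and Dlk2 only through NPS-EMSC, so the tested genes are not an even sample of this list. These non-canonical genes thus changed in both directions. Notch4, the endothelial receptor, had 12, 26 and 12 reads in NPS-EMSC and 12, 11 and 11 reads in EMSC (edgeR adjusted p = 0.370). The Delta-like ligands Dll3 and Dll4 had at most 2 and 6 reads in a library and were not tested. Dll4, the arterial ligand, had 0, 0 and 0 reads in NPS-EMSC, against 0, 0 and 6 in EMSC.

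The genes that let a ligand pull on its receptor were split, with 2 higher, 2 lower and 2 that did not pass of 6 tested (median log2 fold change 0.11). Calls were 66.7% of them, against 59.3% of all tested genes. Epn2, an epsin gene of clathrin endocytosis, fell to 69.6 ± 1.81 CPM in NPS-EMSC, against 104 ± 4.28 CPM in EMSC (SD, n = 3), while its relative Epn1 rose 1.29-fold. Mib2, a ubiquitin ligase gene for Notch ligands, rose 1.33-fold. Neurl1b, another such ligase gene, had 9, 18 and 16 reads in NPS-EMSC, against 37, 38 and 38 in EMSC (log2 fold change -1.22, SE 0.44, edgeR adjusted p = 0.0209). Its call was lost without NPS-EMSC replicate 1 (adjusted p = 0.0983), EMSC replicate 2 (adjusted p = 0.0565) or EMSC replicate 3 (adjusted p = 0.0579).

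Genes of receptor cleavage changed little, with 2 higher and 5 lower of 9 tested (median log2 fold change -0.15). Calls were 77.8% of them, against 59.3% of all tested genes. Adam10, the protease gene of the first ligand-dependent cut, fell to 106 ± 4.06 CPM in NPS-EMSC, against 150 ± 1.86 CPM in EMSC (SD, n = 3; log2 fold change -0.50, SE 0.05, edgeR adjusted p = 1.39e-09). Ncstn, a subunit gene of gamma-secretase, fell by 0.24 on the log2 scale. Adam17, a related protease gene, rose by 0.23.

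The enzymes that put sugars on Notch held larger decreases, with 4 lower and 2 higher of 10 tested (median log2 fold change -0.12). Calls were 60% of them, near the 59.3% of all tested genes. Lfng, the Fringe gene that tunes which ligands a receptor answers to, had 120, 151 and 130 reads in NPS-EMSC, against 466, 413 and 358 in EMSC, and was 2.91-fold lower (log2 fold change -1.54, SE 0.15, edgeR adjusted p = 3.90e-09). Gxylt2, a xylosyltransferase gene, fell to 46.9 ± 0.219 CPM in NPS-EMSC, against 135 ± 9.71 CPM in EMSC (SD, n = 3). Poglut3 fell 1.93-fold, and its relative Poglut2 rose 1.20-fold. The call of Poglut2 was lost on log2(FPKM + 1) values without a filter (adjusted p = 0.0544).

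Of 9 tested genes of the nuclear complex, 4 were higher and 1 lower (median log2 fold change 0.11), so 55.6% were called, against 59.3% of all tested genes. Rbpj, the DNA-binding partner of cut Notch, was at 469 ± 17.0 CPM in NPS-EMSC and 429 ± 14.5 CPM in EMSC (SD, n = 3; log2 fold change 0.13, SE 0.05, edgeR adjusted p = 0.0181). The call of Rbpj was lost without NPS-EMSC replicate 3 (adjusted p = 0.130) or EMSC replicate 3 (adjusted p = 0.110), with upper-quartile scaling (adjusted p = 0.0804) and on log2(FPKM + 1) values (adjusted p = 0.141), and was kept in 10 of 17 alternatives. Maml1, the coactivator gene of the Mastermind family, rose 1.27-fold. Among the acetyltransferase genes Kat2b rose by 0.46 on the log2 scale and Kat2a fell by 0.41, and Snw1 rose by 0.19. The call of Snw1 was lost on log2(FPKM + 1) values without a filter (adjusted p = 0.0795).

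Corepressor genes had 2 higher and 5 lower of 14 tested (median log2 fold change -0.12), so 50% were called, against 59.3% of all tested genes. Tle4, a Groucho-type corepressor gene whose product works with Hes proteins, fell to 27.3 ± 1.08 CPM in NPS-EMSC, against 50.2 ± 0.503 CPM in EMSC (SD, n = 3; log2 fold change -0.88, SE 0.07, edgeR adjusted p = 1.55e-11). Tle1 and Hdac1 fell by 0.30 and 0.22, and the demethylase gene Kdm5a rose by 0.32. Negative regulators and turnover genes had 2 higher and 4 lower of 12 tested (median log2 fold change -0.06), so 50% were called here too. Their changes were small: Aak1, Bend6 and Nedd4 fell by 0.26, 0.29 and 0.18, and Numbl, a relative of the inhibitor Numb, rose by 0.22.

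Other Hes family genes and other genes described as targets, in 1 list, did not move as a group. Of 6 tested, 1 was higher and 2 were lower (median log2 fold change 0.27). Calls were 50% of them, against 59.3% of all tested genes. Ccnd1, cyclin D1, fell to 220 ± 14.7 CPM in NPS-EMSC, against 369 ± 36.3 CPM in EMSC (SD, n = 3; log2 fold change -0.75, SE 0.07, edgeR adjusted p = 5.71e-08). Sox9, a factor of cartilage and neural crest, fell by 0.68, and Myc rose by 0.47. Hes6, whose product counters Hes1, had 561, 654 and 593 reads in NPS-EMSC, against 624, 602 and 574 in EMSC (edgeR adjusted p = 0.539). Hes7 had 3 to 15 reads in a library over both groups (edgeR adjusted p = 0.499). Nrarp, a feedback inhibitor that Notch induces, had 5, 6 and 10 reads in NPS-EMSC, against 9, 4 and 22 in EMSC, and was not tested.

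**Figure D4:**
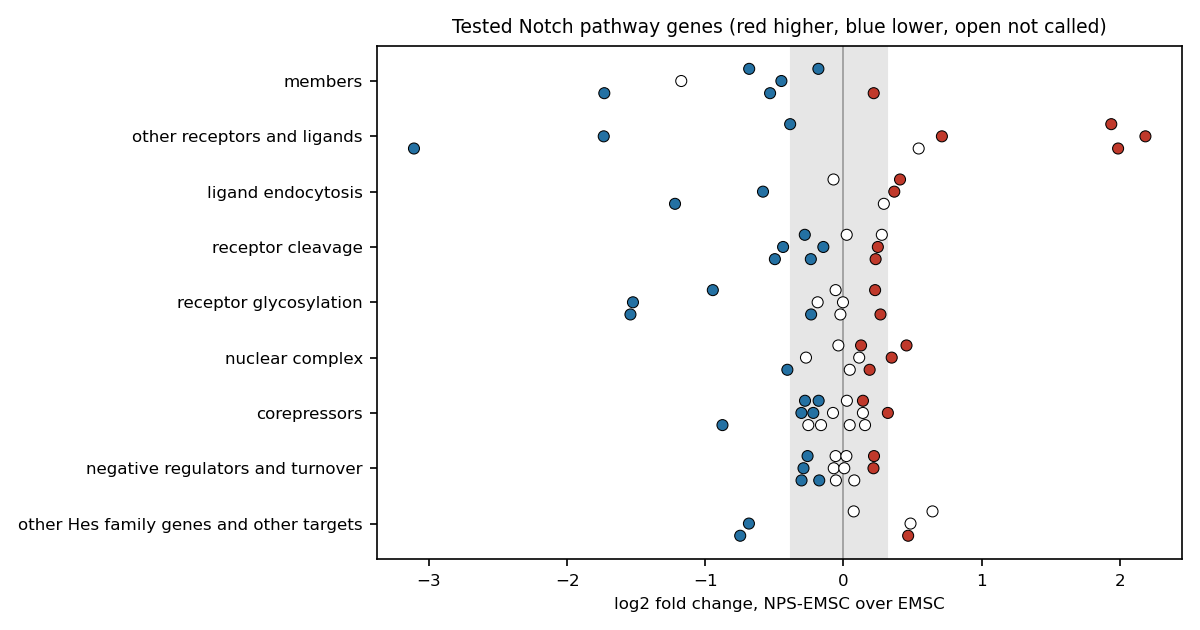
Fold changes of the 7 tested members and of the tested genes of 8 wider pathway lists, 1 row per list; the x axis is the log2 fold change of NPS-EMSC over EMSC, and points are genes, red if called higher, blue if called lower and open if not called. The grey band is the middle of all 14505 tested genes, from -0.38 to 0.31 (quartiles); most points of receptor cleavage, nuclear complex and corepressors lie in or close to it, and Dlk1 at -3.11 and Cntn1 at 2.19 lie farthest out on either side.

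Genes of smooth muscle and pericytes, the cells in which Notch3 is best known, moved against Notch3. Of 12 tested markers 10 rose, none fell (0 lower) and 2 did not pass, while 29.7% of all tested genes rose. The summed level of the markers was 5032 to 5176 CPM in NPS-EMSC libraries, against 1835 to 1984 CPM in EMSC libraries. Acta2, smooth muscle actin, was the most abundant of them in NPS-EMSC, at 1652 ± 44.0 CPM in NPS-EMSC and 318 ± 26.0 CPM in EMSC (SD, n = 3), while in EMSC Pdgfrb and Tagln were above it. Rgs5, a defining pericyte gene, had 1, 0 and 4 reads in NPS-EMSC and no read in EMSC (0, 0 and 0). The part of these cells or genes in the fall of Notch3 was not tested.

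**Figure D5:**
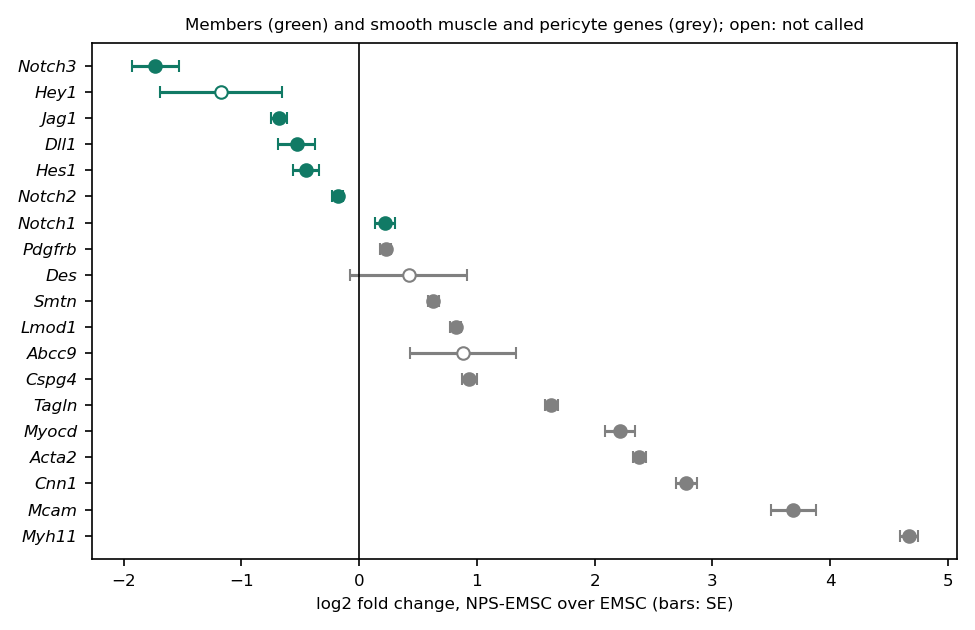
Log2 fold change of NPS-EMSC over EMSC with its SE for the 7 tested members (green) and the 12 tested smooth muscle and pericyte genes (grey); open circles are genes that were not called. Notch3 is lowest at -1.73, and the smooth muscle genes lie to the right of 0, up to Myh11 at 4.67.

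Markers of other cells that use Notch differed in some lists and not in others. Of the leukocyte list, 5 of 5 tested genes were lower in NPS-EMSC, while 29.5% of all tested genes were lower. Ptprc, Csf1r and Itgam passed the filter on low counts only through their EMSC libraries, so the 5 are not an even sample of the list. The summed level was 7.44 to 9.30 CPM in NPS-EMSC and 54.5 to 68.0 CPM in EMSC. Most of the EMSC sum was Lyz2, at 52.5 ± 7.70 CPM (SD, n = 3). Lyz2 was the most abundant in EMSC, and Cd68 in NPS-EMSC. Of the Schwann and neural list, 2 of 3 tested genes were lower and 1 higher, while 59.3% of all tested genes were called in either direction. The list summed to 7.39 to 9.07 CPM in NPS-EMSC and 29.7 to 31.7 CPM in EMSC. Gfap had no read in NPS-EMSC and Elavl4 none in EMSC. The part of these markers in the decreases of Notch3, Jag1, Dll1 and Hes1 was not tested. Epithelial markers summed to 10.3 to 13.2 CPM in NPS-EMSC and 4.18 to 4.96 CPM in EMSC, led by Krt18 in NPS-EMSC and by Krt8 in EMSC. These 2 genes made up most of the sums, with Krt18 at 5.98 CPM in NPS-EMSC and 0.691 CPM in EMSC, and Krt8 at 5.75 and 3.46 CPM. Krt5 went the other way, with no read in NPS-EMSC and 7, 3 and 18 reads in EMSC. Krt14 had no read in NPS-EMSC and 1, 0 and 0 reads in EMSC. Of the endothelial list, 0 of 4 tested genes were called. Endothelial markers were near 0 in both groups, at 3.18 to 3.94 CPM in NPS-EMSC and 4.01 to 5.12 CPM in EMSC. They were led by Tek in NPS-EMSC and by Erg in EMSC. Among them Cdh5 and Tie1 had no read in NPS-EMSC and at most 4 reads in an EMSC library, and Sox17 had none in EMSC.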

How the data were processed

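RNA of 6 libraries was sequenced, after TRIzol extraction and VAHTS Universal V6 library preparation per the labels' protocols. Tools listed without a role in the submitters' processing notes are HTSeq, HISAT2, StringTie, fastp, R 3.2.0 and DESeq. For the build, annotation and strand setting the status is: not given in the sources used here. The authors deposited raw read counts per gene and an FPKM table. For all 20653 genes the FPKM values equalled the counts over the column total and 1 length per gene (tolerance 0.1 percent), so they are no separate measurement.

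Counts were tested with edgeR 4.0.16 in R 4.3.3 (TMM, filterByExpr with a minimum count of 10 and a minimum total of 15, robust quasi-likelihood F test, prior count 2); 14505 genes passed. SE is the absolute log2 fold change over the square root of F. Low members were also tested with every gene kept. Alternatives used DESeq2 1.42.0, limma 3.58.1 and log2(FPKM + 1 or 0.1). The test was checked on simulated counts. The members and lists were chosen with earlier results of these data known. Named were all members, Notch4, Dll3, Dll4, Rbpj, Hes6, Hes7, Nrarp, up to 4 called genes with the smallest p per pathway list, and, per marker list, genes with no read in a group and the gene with the highest mean CPM, with any that was higher in 1 group. Some genes that this rule names are not reported here. Dlk1, Dlk2, Myh11, Ptprc, Csf1r and Itgam were named after their values were seen. A planned comparison of Hes and Hey proteins was not made.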

Additional observations from a re-analysis of the deposited data

How the results depend on the processing

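Notch2, Notch3, Jag1, Dll1 and Hes1 kept their direction and their call under all 17 alternatives run for each of them, with the least margin for Dll1 (adjusted p up to 0.0462). The log2 fold change of Notch3 ranged from -1.85 to -0.53, the smallest size being on log2(FPKM + 1) values, where the pseudocount pulls low genes towards 0. The number of members called higher, 1 in the main test, was 0 with upper-quartile scaling, 0 on log2(FPKM + 1) and 0 on log2(FPKM + 0.1) values with a filter, 0 at an adjusted p under 0.01, 2 with no low-count filter, and 0 to 2 on leaving out 1 library. It rests on Notch1 and, where its few reads pass the filter, Hey2. The number called lower was 5 to 7, the 7 on log2(FPKM + 1) values without a filter. Shares from CPM that ignore gene length were, in NPS-EMSC, 0.508% for Notch3, 88.3% for Jag1 and 96.1% for Hes1, and, in EMSC, 92.8% for Notch2, 1.52% for Notch3, 89.5% for Jag1 and 96.0% for Hes1. The replicate numbers showed no strong pairing: deviations of same-numbered libraries correlated at -0.0597, 0.0749 and 0.0518. NPS-EMSC replicate 1 correlated best with EMSC replicate 3, at 0.108. NPS-EMSC replicates 2 and 3 correlated best with the same-numbered EMSC libraries. Correlations this small cannot settle whether the libraries were paired. With the replicate number as a block, 1 member was called higher and 5 lower, and 4331 genes in all were higher and 4257 lower. At the present depth Jag2, Hey2 and Heyl stayed below the filter in the main test on all libraries. Leaving out libraries with every gene kept was chosen after seeing the data.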
